A study of Mus musculus with 8 samples.

Results

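The genes described here are 10 markers of monocytes and macrophages in the mouse heart, namely Adgre1, Cd68, Lyz2, Csf1r, Cx3cr1, Ccr2, Itgam, Cd14, Lgals3 and Tyrobp. They were taken by symbol from a deposited table of 34745 genes, and they fill 11 of its rows because Itgam has 2. The set was named for recruited cells, which the data can check only in part. With the 2 rows of Itgam added, Ccr2, the chemokine receptor of recruited monocytes, was the lowest of the 10 in every library. Adgre1, Cd68, Csf1r and Cx3cr1 are known in resident cardiac macrophages too. The genes are therefore called monocyte and macrophage markers below.

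Monocytes are made in the bone marrow and circulate in the blood. In an inflamed heart they cross the vessel wall, drawn by chemokines such as the ligands of CCR2, and can become macrophages that take up debris and present antigen. The lineage depends on CSF1 acting through the receptor CSF1R and on the transcription factor PU.1, the product of Spi1, while the healthy heart already holds macrophages that share most of these markers.

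Messenger RNA of mouse hearts was sequenced in 8 bulk libraries to follow how the ubiquitin ligase TRIM21 acts in experimental autoimmune myocarditis (EAM), an inflammation of the heart raised by immunization against a peptide of cardiac myosin. The control group held 2 libraries of wild-type hearts at day 0. The EAM wild-type group held 3 libraries of wild-type hearts with EAM at day 21, and the EAM knockout group 3 libraries of Trim21 knockout hearts with EAM at day 21. All 8 carry the label Balb/c. Per the labels' protocols, the myosin peptide MyHCα was injected under the skin in complete Freund's adjuvant on days 0 and 7, and control mice received the adjuvant with buffer. The labels nevertheless place the controls at day 0, so day, peptide and possibly adjuvant cannot be told apart when EAM is set against control. Older names of the libraries, deposited beside the table, give day 35 for both EAM groups, and this was not resolved. The sources used here do not give age, sex, the part of the heart taken, the design of the knockout allele or whether a library held 1 animal. All p-values therefore refer to the spread among these libraries. Healthy Trim21 knockout hearts were not analysed here, and no interaction of genotype with disease was tested.

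Levels are FPKM, the fragments of a gene scaled to its length and to the size of the library. The depth, read from the steps of low values, was 14389000 to 16923000 fragments per library. Trim21 was at 0 to 0.0481 FPKM in the knockout libraries and at 1.98 to 3.37 FPKM in the other 5. The 9 cardiomyocyte markers summed to 11610 to 15430 FPKM, so the labelled tissue was present in all 8. Atrial muscle content set libraries apart. Sln is an atrial regulator of the calcium pump. It reached 395 FPKM in EAM wild type 2, 531 FPKM in EAM knockout 1 and 421 FPKM in EAM knockout 2. EAM wild type 1 and EAM wild type 3 were lower, at 15.5 and 58.9 FPKM. Both controls and EAM knockout 3 were at 0.459 FPKM or less. In bulk tissue, fewer cells of a type and less RNA per cell cannot be told apart.

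Stretches upstream of 4 markers are shown because PU.1 is a known regulator of this lineage and the 4 differ in whether its core letters occur there. Each is the 250 bases before the RefSeq transcription start (GRCm38.p6), 5′ to 3′ on the strand of the gene. Capitals mark the PU.1 core GAGGAA, or its reverse complement TTCCTC. Itgam is on the plus strand at chr7:128062390-128062639. Cd68, Lyz2 and Cx3cr1 are on the minus strand at chr11:69666171-69666420, chr10:117282273-117282522 and chr9:120068297-120068546.
Itgam: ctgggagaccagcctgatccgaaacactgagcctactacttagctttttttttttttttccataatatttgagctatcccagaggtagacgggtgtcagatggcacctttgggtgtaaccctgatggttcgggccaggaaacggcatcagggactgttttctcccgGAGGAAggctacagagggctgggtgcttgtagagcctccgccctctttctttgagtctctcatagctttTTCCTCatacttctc
Cd68: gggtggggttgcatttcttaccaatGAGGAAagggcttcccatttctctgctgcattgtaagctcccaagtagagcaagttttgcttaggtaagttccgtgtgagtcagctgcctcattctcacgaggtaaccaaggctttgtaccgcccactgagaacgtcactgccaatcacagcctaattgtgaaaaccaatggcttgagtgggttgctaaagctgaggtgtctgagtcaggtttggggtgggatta
Lyz2: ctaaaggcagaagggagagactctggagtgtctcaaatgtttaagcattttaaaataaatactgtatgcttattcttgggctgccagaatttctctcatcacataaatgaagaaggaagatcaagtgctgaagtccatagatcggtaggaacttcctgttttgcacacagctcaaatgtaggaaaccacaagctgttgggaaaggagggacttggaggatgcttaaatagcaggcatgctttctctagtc
Cx3cr1: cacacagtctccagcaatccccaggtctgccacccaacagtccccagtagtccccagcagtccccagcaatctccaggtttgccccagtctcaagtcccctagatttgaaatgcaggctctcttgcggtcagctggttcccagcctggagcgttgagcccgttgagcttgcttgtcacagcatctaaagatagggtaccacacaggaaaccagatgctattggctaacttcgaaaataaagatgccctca
A usable window of 300 bases, 250 before and 50 after the start, was found for 6 of the 10 markers, Itgam, Cd68, Lyz2, Cx3cr1, Ccr2 and Lgals3. On both strands together, GAGGAA was in the windows of Itgam and Cd68, 2 of the 6, and in 28.3% of all 32851 windows of the RefSeq table. Itgam held 3 matches, starting at -84 on the plus strand of the gene and at -15 and 33 on the other strand. Cd68 held 2, starting at -225 on the plus strand of the gene and at 30 on the other strand. The C/EBP core TTGCNNAA, which binds another factor family of the lineage, was in the window of Cd68 alone among the 6, at -43, and in 10.8% of all windows. A match is a description of letters and not a binding site.

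In the deposited mm10 coordinates the markers lie at chr18:61105572-61132149 (Csf1r), chr9:119901616-120068283 (Cx3cr1), chr9:124101950-124113557 (Ccr2), chr17:57358686-57483529 (Adgre1), chr10:117277334-117282274 (Lyz2), chr11:69664213-69666153 (Cd68), chr14:47367751-47386160 (Lgals3), chr18:36725074-36726736 (Cd14) and chr7:30413788-30417577 (Tyrobp), with Itgam given below. All are annotated as protein-coding genes, and their values cover the exons of each.

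The 10 markers spanned a wide range of levels. In control hearts, mean FPKM was 126 ± 15.2 for Lyz2, 22.3 ± 6.96 for Tyrobp, 8.60 ± 0.347 for Csf1r, 6.02 ± 1.11 for Cd68 and 4.16 ± 0.499 for Cd14 (SD, n = 2). It was 1.89 ± 0.877 for Lgals3, 1.07 ± 0.129 for Adgre1, 0.542 ± 0.132 for Itgam, 0.523 ± 0.0842 for Cx3cr1 and 0.0609 ± 0.00284 for Ccr2. Of the neighbours in this order, Itgam and Cx3cr1 overlapped between libraries. In EAM wild-type hearts, Csf1r and Cd68 overlapped, and Cx3cr1 stood above Itgam in every library. In EAM knockout hearts, Cd14, at 5.62 ± 1.03 FPKM, ranked next to Cd68, at 5.32 ± 0.226 FPKM (SD, n = 3 each), and overlapped with it. Lyz2 was the most abundant of the 10 and Ccr2 the least in each of the 8 libraries, with the 2 rows of Itgam added. On its first row alone Itgam lay below Ccr2 in EAM wild type 1, EAM knockout 2 and EAM knockout 3.

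**Figure D1:**
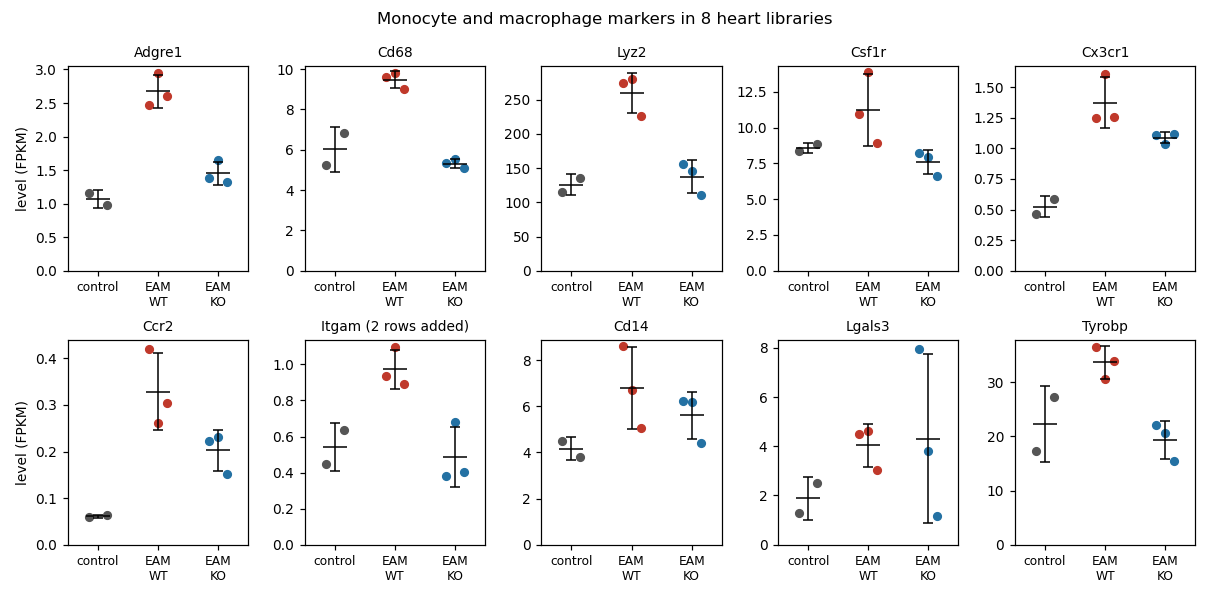
Levels of the 10 markers in FPKM (vertical axes, each from 0) in control, EAM wild-type and EAM knockout (KO) libraries; points are libraries, long bars are means and short bars the SD (n = 2, 3 and 3). All EAM wild-type points lie above both control points in all 10 panels, and the knockout points of Lgals3 spread from 1.16 to 7.95 FPKM.

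Wild-type EAM hearts were first compared with control hearts, which addresses the disease model in the presence of Trim21. All 10 markers stood above both controls in every wild-type EAM library, Itgam as the sum of its 2 rows. Of the 8 tested, 3 passed as risen, namely the surface receptor Adgre1, the lysozyme gene Lyz2 and the chemokine receptor Cx3cr1. Cx3cr1 reached 1 FPKM in EAM libraries alone, so nothing is read from its call. Ratios of mean FPKM ran from 1.31 for Csf1r to 5.39 for Ccr2. Genes entered the limma test on log2(FPKM + 1) with at least 1 FPKM in at least 2 libraries. This left 10393 genes and removed Ccr2 and both rows of Itgam. Of all tested genes, 1.36% rose and 0.135% fell at an adjusted p of 0.05. A further measure is whether the libraries of the groups overlap, and 24.6% of tested genes lay above both controls in every EAM wild-type library, while 6.68% lay below both. No marker fell or lay below. The median log2 change was 0.62 over the 8 tested markers and 0.084 over all tested genes, as a description only, since Cx3cr1 was under 1 FPKM in both controls and entered the test through its EAM libraries.

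Among the receptors that keep and steer the lineage, Csf1r, the receptor of CSF1, was at 8.36 and 8.85 FPKM in control and at 10.96, 13.9 and 8.91 FPKM in EAM wild type. EAM wild type 3 lay just above the higher control, and the change did not pass (log2 change 0.33, SE 0.17, limma adjusted p = 0.424). Cx3cr1, the receptor of fractalkine, was at 0.463 and 0.582 FPKM in control and at 1.25, 1.61 and 1.26 FPKM in EAM wild type. Its mean FPKM was 2.63 times that of control, with the groups far apart (log2 change 0.64, SE 0.12, limma adjusted p = 0.0383). Since Cx3cr1 entered the test only through EAM libraries, that p-value is not read as a result. Ccr2, the receptor through which monocytes leave the marrow and enter tissue, was at 0.0589 and 0.0629 FPKM in control, about 7 and 6 fragments. It was at 0.421, 0.260 and 0.304 FPKM in EAM wild type. The Poisson 95% intervals of Ccr2 reached at most 0.131 FPKM in control, and started at 0.172 FPKM or more in EAM wild type, so they did not overlap; such intervals cover counting error only. The exact two-sided permutation test gave its smallest possible p of 0.1 for Ccr2 (log2 difference 0.32; 0.15 after Benjamini-Hochberg adjustment over 6 such tests).

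Of the surface molecules, Adgre1, which encodes the macrophage receptor F4/80, was at 1.16 and 0.979 FPKM in control and at 2.46, 2.95 and 2.61 FPKM in EAM wild type. The lowest EAM library was above 2 times the higher control, and Adgre1 rose 2.497-fold in mean FPKM (log2 change 0.83, SE 0.12, limma adjusted p = 0.0110). Itgam encodes CD11b, the alpha chain of a beta-2 integrin with which myeloid cells adhere. Its 2 rows are overlapping models on the same strand (mm10 chr7:128062640-128118491 and chr7:128062683-128128160), both named Itgam in the deposited table; GENCODE M21 names the second Gm49368. The split of values between them differed from library to library. The first row was at 1.10 FPKM in EAM wild type 2, where the second was at 0, so the rows were added, a choice made after seeing the values. The sum was 0.449 and 0.636 FPKM in control and 0.933, 1.10 and 0.890 FPKM in EAM wild type. The exact two-sided permutation test again gave its smallest p of 0.1 (log2 difference 0.36; adjusted 0.15). The first row alone was at 0.180 and 0.198 FPKM in control and at 0.328 FPKM or more in EAM wild type, while the second alone overlapped.

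Of the proteins that work inside or leave the phagocyte, Lyz2, the lysozyme of macrophages and granulocytes, was at 114.8 and 136.3 FPKM in control and at 274.3, 280.4 and 226.5 FPKM in EAM wild type. Each EAM library exceeded both controls by a wide margin, and Lyz2 rose 2.07-fold (log2 change 1.04, SE 0.18, limma adjusted p = 0.0278). A close copy, Lyz1, lies beside it, and the sources used here do not say how fragments that fit both were assigned. Cd68, a glycoprotein of the lysosomal membrane, was at 5.23 and 6.81 FPKM in control and at 9.58, 9.82 and 9.02 FPKM in EAM wild type. The EAM libraries lay close together above the spread controls, and the change missed the threshold (log2 change 0.59, SE 0.12, limma adjusted p = 0.0583). Lgals3, which encodes the galactoside-binding lectin galectin-3, was at 1.27 and 2.51 FPKM in control and at 4.49, 4.61 and 3.04 FPKM in EAM wild type. Control 2 came near EAM wild type 3, and Lgals3 did not pass (log2 change 0.82, SE 0.48, limma adjusted p = 0.493).

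Of the recognition and signalling molecules, Cd14, the co-receptor that hands lipopolysaccharide to TLR4, was at 4.51 and 3.81 FPKM in control and at 8.62, 6.72 and 5.08 FPKM in EAM wild type. The EAM libraries were spread 1.70-fold and the lowest stood little above control 1, and Cd14 did not pass (limma adjusted p = 0.221). Tyrobp, the adaptor DAP12 that carries activating signals of receptors such as TREM2, was at 17.4 and 27.2 FPKM in control and at 36.6, 30.5 and 33.9 FPKM in EAM wild type. The gap between the controls was larger than that between control 2 and EAM wild type 2, and Tyrobp did not pass (log2 change 0.60, SE 0.21, limma adjusted p = 0.219). The calls rested on both controls: no marker passed without control 1 or without control 2, and Adgre1 alone passed without EAM wild type 1, EAM wild type 2 or EAM knockout 2 and after median-ratio scaling or quantile normalization. With a filter of 5 FPKM, which left 5 markers tested and Adgre1, Cx3cr1 and Lgals3 untested, Lyz2 passed. Without a filter Adgre1 alone passed, and Cx3cr1 lost its call whichever library was left out. With the atrial score of each library as a covariate no marker passed, while the fitted changes of all 8 stayed positive under every alternative tried.

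**Figure D2:**
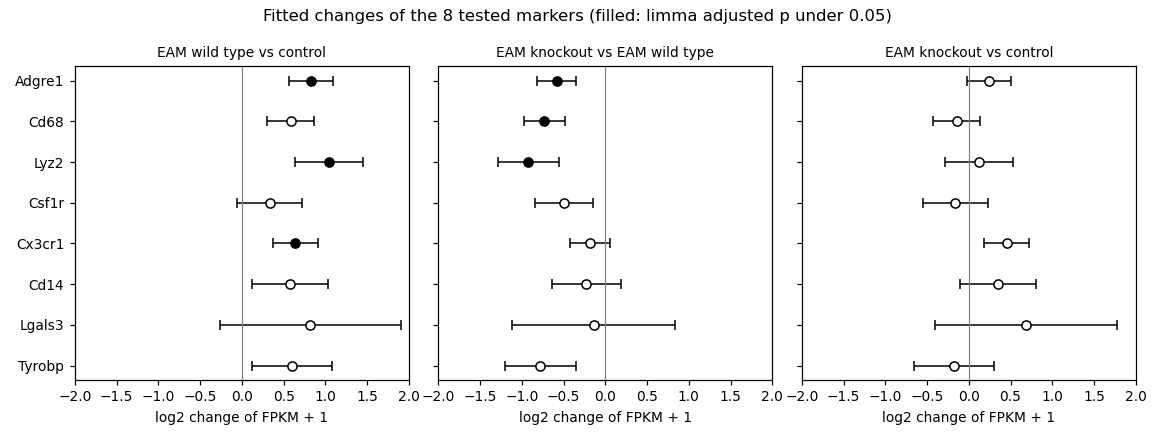
Fitted log2 changes of FPKM + 1 (horizontal axes) of the 8 tested markers in the 3 comparisons, with 95% confidence intervals from limma; filled points have an adjusted p under 0.05. The left panel holds 3 filled points, the middle panel 3 and the right panel 0.

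Knockout EAM hearts were next compared with wild-type EAM hearts, which addresses the loss of Trim21 under disease. Of the 8 tested, 3 fell, namely Cd68, Lyz2 and Adgre1, each to between 0.529 and 0.561 times its mean FPKM in EAM wild type. For 8 of the 10 markers every knockout library lay below every EAM wild-type library, Cd14 and Lgals3 being the exceptions. Itgam counts among the 8 only as the sum of its rows, since on the first row alone EAM knockout 1, at 0.371 FPKM, lay above EAM wild type 1, at 0.328 FPKM. Over all tested genes, 2.8% fell and 0.289% rose, while 22.6% lay below EAM wild type without overlap and 2.58% above. No marker rose or lay above, and 6 of the 8 tested markers lay below. The median log2 change was -0.54 over the 8 tested markers. It was -0.12 over all tested genes and -0.0020 after median-ratio scaling, so falls are about that much smaller relative to all genes. All 8 fitted changes were negative under each of the other scalings tried.

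Cd68 was at 5.33, 5.53 and 5.08 FPKM in the knockout, a narrow range far below the 9.02 FPKM of the lowest EAM wild-type library. It fell to 0.561 times its level (log2 change -0.73, SE 0.11, limma adjusted p = 0.0135). Lyz2 was at 156.4, 145.5 and 111.5 FPKM in the knockout, all below the 226.5 FPKM of EAM wild type 3, and fell to 0.529 times (log2 change -0.92, SE 0.16, limma adjusted p = 0.0222). Adgre1 was at 1.39, 1.65 and 1.32 FPKM in the knockout, with no overlap, and fell to 0.543 times (log2 change -0.58, SE 0.10, limma adjusted p = 0.0226). Tyrobp was at 22.1, 20.6 and 15.4 FPKM in the knockout. These lay below every EAM wild-type library, and the change missed the threshold (log2 change -0.78, SE 0.19, limma adjusted p = 0.0616). Csf1r was at 8.23, 7.95 and 6.64 FPKM in the knockout. EAM knockout 1 lay near EAM wild type 3, and Csf1r did not pass (log2 change -0.50, SE 0.16, limma adjusted p = 0.122).

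The summed rows of Itgam were at 0.383, 0.678 and 0.402 FPKM in the knockout, below every EAM wild-type library, with an exact two-sided permutation p of 0.1, the smallest possible (log2 difference -0.41; adjusted 0.15). The first row alone was at 0.371, 0.231 and 0.136 FPKM in the knockout and overlapped with EAM wild type. Ccr2 was at 0.223, 0.232 and 0.152 FPKM in the knockout, about 23, 25 and 17 fragments, with Poisson 95% intervals from 0.0895 to 0.349 FPKM that overlapped those of EAM wild type. EAM knockout 2 came close to EAM wild type 2, and the exact two-sided permutation p was again 0.1 (log2 difference -0.14; adjusted 0.15). Cx3cr1 was at 1.11, 1.04 and 1.12 FPKM in the knockout, just below the EAM wild-type range. Its mean was 0.792 times that of EAM wild type, and the difference did not pass (log2 change -0.18, 95% interval -0.42 to 0.06, limma adjusted p = 0.379).

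Cd14 and Lgals3 overlapped between genotypes. Cd14 was at 6.24, 6.18 and 4.43 FPKM in the knockout, against 5.08 FPKM in EAM wild type 3, and did not pass (log2 change -0.23, 95% interval -0.64 to 0.18, limma adjusted p = 0.519). Lgals3 was at 7.95, 3.81 and 1.16 FPKM in the knockout, so its highest and lowest library of all 8 were both knockout. Its fitted change was -0.14 (95% interval -1.11 to 0.83, limma adjusted p = 0.888) and became 0.39 without EAM knockout 3. It was -1.12 (SE 0.29, limma adjusted p = 0.128) without the 3 libraries high in atrial transcripts, among them EAM knockout 1 and EAM knockout 2. Within the knockout group the highest library was 6.85 times the lowest for Lgals3, and 1.08 to 1.77 times for the other 9 markers. EAM knockout 3 was the lowest knockout library for 8 of the 10 markers, Cx3cr1 and Itgam excepted, and it was also the knockout library without raised atrial transcripts.

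Which markers passed depended on scaling and on single libraries. After median-ratio scaling no marker passed, and with quantile normalization Adgre1 alone passed. The count was 1 without EAM wild type 1, EAM wild type 2, EAM knockout 2 or EAM knockout 3, and 2 without EAM wild type 3 or EAM knockout 1. Cd68 passed whichever library was left out. Adgre1, Cd68 and Lyz2 all passed with atrial content as a covariate, and Cd68 alone without a filter on low values. Without the 3 libraries high in atrial transcripts no marker passed; that fit keeps 1 knockout library, whose variation is taken from the other groups. The fitted changes there were -0.76 for Cd68, -1.15 for Lyz2 and -0.61 for Adgre1, at least as large as with all libraries. Atrial content still differed between the groups of that fit. Sln was at 15.5 and 58.9 FPKM in EAM wild type 1 and EAM wild type 3, and at 0.119 FPKM in EAM knockout 3.

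The comparison of EAM knockout with control hearts shares its libraries with both comparisons above, and its values are given side by side with theirs. By limma no marker passed, against 0.568% of tested genes that rose and 0.799% that fell at an adjusted p of 0.05. An unadjusted p under 0.05 was found for 1 of the 8 tested markers and for 1422 of all 10393 tested genes. Every knockout library lay above both controls for 3 markers, Adgre1, Cx3cr1 and Ccr2, the first 2 of them among the 8 tested, where 14.1% of all genes did so. Csf1r alone lay below both controls in every knockout library, as did 22.4% of all tested genes. The other 6 overlapped with control. The marker with the unadjusted p under 0.05 was Cx3cr1, whose knockout mean was 2.08 times that of control (log2 change 0.46, SE 0.12, limma adjusted p = 0.1197). Here too Cx3cr1 entered the test only through EAM libraries. Ccr2 was 3.33 times and Lgals3 2.28 times its control mean. The means of Cd68, Csf1r, Itgam and Tyrobp in the knockout were 0.883, 0.884, 0.899 and 0.868 times those of control, and those of Lyz2, Cd14 and Adgre1 were 1.10, 1.35 and 1.36 times. For Itgam the direction rests on the added rows, as the first row alone had a knockout mean of 0.246 FPKM against 0.189 FPKM in control, 1.297 times.

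**Figure D3:**
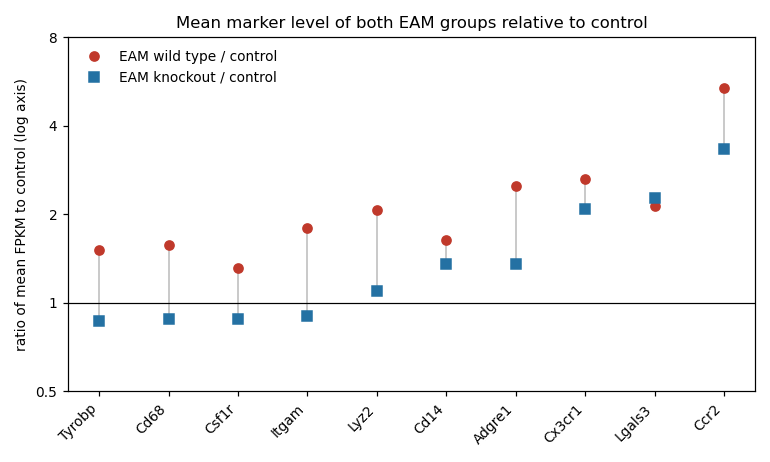
Ratio of mean FPKM to the control mean (vertical axis, log scale) for each marker, in EAM wild type (circles, n = 3) and EAM knockout (squares, n = 3) over the same 2 controls. The squares of Tyrobp, Cd68, Csf1r and Itgam (its 2 rows added) lie under 1, and those of Cx3cr1, Lgals3 and Ccr2 above 2.

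The pair of chemokine receptors was compared within libraries. The ratio of Ccr2 to Cx3cr1 FPKM was 0.127 and 0.108 in the controls. The wild-type EAM libraries had ratios of 0.336, 0.162 and 0.241, and the knockout libraries 0.202, 0.223 and 0.136. It was higher in each EAM library than in control, and the genotypes overlapped. On the log2(FPKM + 1) scale, which compresses genes as low as Ccr2, the difference of EAM wild type from control was -0.32 (exact two-sided permutation p = 0.2, adjusted 0.24). With a pseudocount of 0.1 it became 0.15, so no direction is read from it. The knockout differed from EAM wild type by 0.04 (exact two-sided permutation p = 0.8).

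The markers were also set against the summed FPKM of 8 genes common to leukocytes (Ptprc, Laptm5, Coro1a, Cd52, Cd53, Lcp1, Rac2 and Arhgdib), as a description added after Ptprc alone proved low. That sum was 16.9 and 23.7 FPKM in control, 41.2 to 44.7 FPKM in EAM wild type and 23.6 to 25.3 FPKM in the knockout. Arhgdib alone gave 4.47 and 8.30, 6.17 to 12.7 and 7.67 to 9.81 FPKM of the sum, in the same order. Unlike the sum, Arhgdib overlapped between genotypes, and a sum without it was not formed. Per unit of the full sum, the knockout mean over the EAM wild-type mean was 0.960 for Adgre1, 0.991 for Cd68 and 0.932 for Lyz2. It was 1.01 for Tyrobp, 1.08 for Ccr2 and 1.40 for Cx3cr1. It was 0.882 for Itgam, 1.19 for Csf1r, 1.44 for Cd14 and 1.86 for Lgals3. The mean of EAM wild type over that of control was 2.49 for Ccr2 and 1.22 for Cx3cr1, and 0.734, 0.600, 0.841 and 0.716 for Cd68, Csf1r, Itgam and Tyrobp. For Adgre1, Lyz2, Cd14 and Lgals3 it was 1.12, 0.9603, 0.7407 and 1.035. The order of the libraries depended on the denominator. Per unit of the sum, Cx3cr1 was higher in each knockout library than in each EAM wild-type library, and higher in each of the latter than in control. Per unit of Ptprc, the gene of CD45, the controls had Cx3cr1 values of 2.58 and 3.21. The wild-type EAM libraries had 2.30, 5.74 and 4.74 and the knockout libraries 5.51, 5.41 and 6.95, with overlap in both comparisons. Per unit of Ptprc, Cd14 was the only marker higher in each knockout library than in each EAM wild-type library. Per unit of the sum Cd14 overlapped between genotypes. Cd68, Csf1r, Itgam and Tyrobp, lower than control in every EAM wild-type library per unit of the sum, overlapped with control per unit of Ptprc as well. Ccr2 stood above control by both denominators, the controls having 0.328 and 0.346 per unit of Ptprc and the wild-type EAM libraries 0.773, 0.926 and 1.14. The same orders were not counted over all genes, so none is read as particular to the markers.

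Genes that act with the markers were followed in lists. Of 5 chemokine genes listed as attractants of the lineage, Ccl7 and Ccl8 rose in EAM wild type and fell in the knockout. Ccl8 was at 0.694 and 1.20 FPKM in control, 12.8, 9.83 and 11.2 FPKM in EAM wild type and 3.27, 3.63 and 1.31 FPKM in the knockout, with a rise of 2.66 and a change of -1.77 on the log2 scale (limma adjusted p = 0.00479 and 0.00904). Ccl7 was at 0.664 and 1.19 FPKM in control, 7.46, 3.503 and 13.5 FPKM in EAM wild type and 1.08, 1.76 and 1.60 FPKM in the knockout (limma adjusted p = 0.0383 and 0.0344). None of the 5 passed in the knockout against control. There 2 of them, and 1422 of all 10393 tested genes, had an unadjusted p under 0.05. Cx3cl1, the fractalkine gene, was at 3.64 ± 0.438 FPKM in EAM wild type and 4.09 ± 0.783 FPKM in the knockout (SD, n = 3 each). Among the 5 it alone had a positive fitted change between genotypes (0.13, limma adjusted p = 0.615).

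Of 11 tested genes of the CSF1 axis and of the transcription factors of the lineage, Spi1 and Irf8 rose in EAM wild type and Irf8 fell in the knockout. Spi1, the gene of PU.1, was at 1.41 and 1.58 FPKM in control, 3.70, 3.97 and 2.66 FPKM in EAM wild type and 1.66, 2.49 and 1.90 FPKM in the knockout. Its rise passed (log2 change 0.82, limma adjusted p = 0.0468) and its difference between genotypes did not (log2 change -0.56, limma adjusted p = 0.0734). Irf8, a factor of monocyte development, went from 0.911 ± 0.142 FPKM in control (SD, n = 2) to 2.01 ± 0.309 in EAM wild type and 1.04 ± 0.124 in the knockout (SD, n = 3 each; limma adjusted p = 0.0458 and 0.0350). Cebpb, a C/EBP factor, was at 54.8 ± 15.2 FPKM in control (SD, n = 2). It was at 30.3 ± 6.11 FPKM in EAM wild type and 21.1 ± 3.55 FPKM in the knockout (SD, n = 3 each). Its fall in the knockout against control passed (limma adjusted p = 0.0278). Every EAM wild-type library also lay below both controls, as for 6.68% of tested genes, without passing (limma adjusted p = 0.127). Cebpb overlapped between genotypes (limma adjusted p = 0.219). Csf1, the ligand of CSF1R, was at 5.28 ± 0.297, 7.45 ± 0.366 and 6.46 ± 0.189 FPKM in the same order of groups and passed in no comparison.

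Of 6 tested genes of beta-2 integrins and their ligand, Icam1, the endothelial ligand, rose from 6.24 ± 1.16 FPKM (SD, n = 2) to 13.7 ± 1.05 FPKM (SD, n = 3; limma adjusted p = 0.00948). Itgax, the alpha chain CD11c, was at 1.01, 1.51 and 0.895 FPKM in EAM wild type and at 0.189, 0.289 and 0.104 FPKM in the knockout (limma adjusted p = 0.0269). It reached 1 FPKM in EAM wild type 1 and EAM wild type 2 alone, so it entered the test only through the group where it was high, and nothing is read from its call. Of 6 tested genes of CD14 and Toll-like receptor recognition, Lbp, which brings lipopolysaccharide to CD14, rose in EAM wild type (limma adjusted p = 0.0437). None of the 6 passed between genotypes. There 4 of them, and 2075 of all 10393 tested genes, had an unadjusted p under 0.05. Among the genes that signal with TYROBP, Plcg2, a phospholipase gene downstream, was at 3.83 ± 0.111 FPKM in control (SD, n = 2). It did not pass in EAM wild type against control (limma adjusted p = 0.698). Between genotypes it fell from 4.19 ± 0.276 to 2.62 ± 0.109 FPKM (SD, n = 3 each, limma adjusted p = 0.0206). Every knockout library lay below both controls, as for 22.4% of tested genes, without passing (limma adjusted p = 0.101). Trem2 was at 1.03 ± 0.154 FPKM in EAM wild type and 0.525 ± 0.0106 FPKM in the knockout and did not pass (limma adjusted p = 0.113).

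Of 21 other monocyte and macrophage genes, 11 were tested. Mpeg1, Cybb and Nos2 rose in EAM wild type, and Mpeg1, Cybb and Ms4a6c fell in the knockout. Mpeg1, a pore-forming protein of phagocytes, was at 1.98 and 2.92 FPKM in control, 7.76, 7.22 and 5.999 FPKM in EAM wild type and 2.93, 3.04 and 1.97 FPKM in the knockout (limma adjusted p = 0.0139 and 0.00934). Nos2, the inducible nitric oxide synthase, was at 4.03 and 3.75 FPKM in control, 6.12, 8.23 and 8.32 FPKM in EAM wild type and 7.96, 8.26 and 8.15 FPKM in the knockout, and it rose in the knockout against control too (log2 change 0.90, SE 0.14, limma adjusted p = 0.0161). Between genotypes its groups overlapped (log2 change 0.10, limma adjusted p = 0.672). Ly6c2, a marker of inflammatory monocytes, was at 2.49 ± 0.0512, 3.13 ± 0.814 and 2.15 ± 0.320 FPKM in control, EAM wild type and knockout and passed in no comparison.

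Markers of other cell types were summed beside the set, and their part in the results above was not tested. The 10 genes of resident cardiac macrophages, 8 of them tested, summed to 105 and 123 FPKM in control, 108 to 133 FPKM in EAM wild type and 95.9 to 127 FPKM in the knockout. Gas6, the ligand of the receptor MERTK, gave 64.9 to 97.8 FPKM of each sum, and the other 9 genes summed to 33.3 and 43.6 FPKM in control, 26.7 to 35.5 FPKM in EAM wild type and 27.8 to 38.8 FPKM in the knockout. By limma none of the 8 tested passed in any of the 3 comparisons. An unadjusted p under 0.05 was found for 2, 1 and 2 of them. In the same order of comparisons it was found for 1514, 2075 and 1422 of all 10393 tested genes. Of the 8 fitted changes in EAM wild type against control, 3 were positive and 5 negative. Gas6 and Vsig4 lay above both controls in every EAM wild-type library, as did 24.6% of all tested genes. Lyve1 and Cd163 lay below both, as did 6.68%. Lyve1, the hyaluronan receptor, was lower in every EAM library than in control, at 5.53 and 6.13 FPKM against 2.51, 3.28 and 1.79 FPKM in EAM wild type and 4.10, 2.35 and 2.41 FPKM in the knockout (limma adjusted p = 0.0711 and 0.127). Neutrophils are known to express Lyz2, Itgam and Cd14 as well. Their 11 marker genes summed to 0.979 and 1.75 FPKM in control, 4.19 to 9.86 FPKM in EAM wild type and 3.26 to 6.51 FPKM in the knockout. Of their defining genes, S100a8 was at most 1.59 FPKM, S100a9 at most 4.93 FPKM and Ly6g at 0 in all 8 libraries. The 8 dendritic cell genes summed to 2.33 and 2.82, 5.64 to 6.97 and 3.13 to 3.68 FPKM. Of these genes, Flt3 was at 0.134 FPKM or less in all 8 libraries. Cd209a was at 0.119 and 0.183 FPKM in control, 1.21 to 1.98 FPKM in EAM wild type and 0.288 to 0.765 FPKM in the knockout. Its rise and its fall between genotypes passed (limma adjusted p = 0.0177 and 0.0327). Like Itgax, it reached 1 FPKM in EAM wild type alone, so nothing is read from these calls. The 11 T cell genes summed to 0.894 and 2.32, 7.52 to 8.59 and 2.17 to 5.401 FPKM. The 6 NK cell genes summed to 0.270 and 1.06, 2.99 to 5.15 and 0.537 to 1.36 FPKM. The 5 B cell genes summed to 0.878 and 1.62, 1.32 to 1.80 and 1.92 to 2.53 FPKM, higher in every knockout library than in every EAM wild-type library. The 6 mast cell genes summed to 3.01 and 4.34, 3.72 to 4.66 and 4.59 to 6.33 FPKM, and the 8 endothelial genes to 285 and 294, 327 to 401 and 310 to 319 FPKM. The 9 fibroblast genes summed to 1072 and 1097, 1159 to 1464 and 682 to 1120 FPKM.

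**Figure D4:**
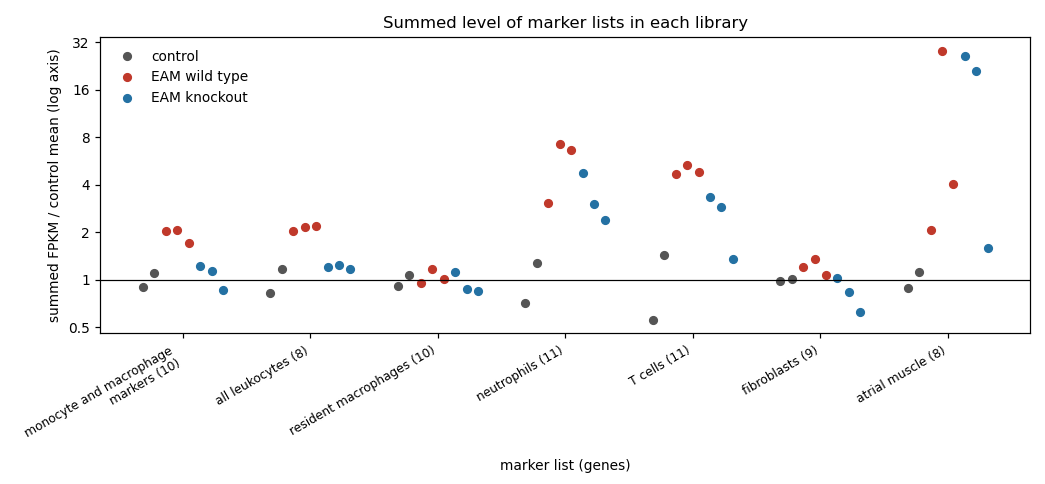
Summed FPKM of each marker list divided by the control mean of that sum (vertical axis, log scale), per library, with the number of genes in brackets. The 3 EAM wild-type libraries lie above all others for the monocyte and macrophage markers and for the leukocyte, T cell and fibroblast genes. The atrial genes are highest in EAM wild type 2, EAM knockout 1 and EAM knockout 2.

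Last, genes were ranked by how closely they followed the mean profile of the 8 tested markers over the 8 libraries. Profiles were log2(FPKM + 1), each centred and divided by its SD, and likeness was the root mean square distance. Its median over all tested genes was 1.15 SD. Each marker is itself part of the mean profile, so its own distance is lowered by construction and is not read against that median. The mean profile includes Cx3cr1, which entered through its EAM libraries. Among the markers, Lyz2 lay closest at 0.133 SD and Lgals3 farthest at 0.752 SD, with Adgre1 at 0.395, Cd68 at 0.451, Tyrobp at 0.504, Csf1r at 0.531, Cd14 at 0.596 and Cx3cr1 at 0.617 SD. The 8 closest named genes outside the markers, with a mean of at least 5 FPKM, were Col3a1 at 0.179 SD, Ppp1r9b at 0.189, C3 at 0.193, Tapbp at 0.237, Pip5k1c at 0.239, Unc93b1 at 0.240, H2-DMa at 0.240 and Ctss at 0.242 SD. Each of these 8 was highest in the 3 EAM wild-type libraries. The collagen gene Col3a1 was at 21.8 and 21.4 FPKM in control, 57.1, 63.5 and 45.1 FPKM in EAM wild type and 29.8, 29.5 and 21.7 FPKM in the knockout.

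**Figure D5:**
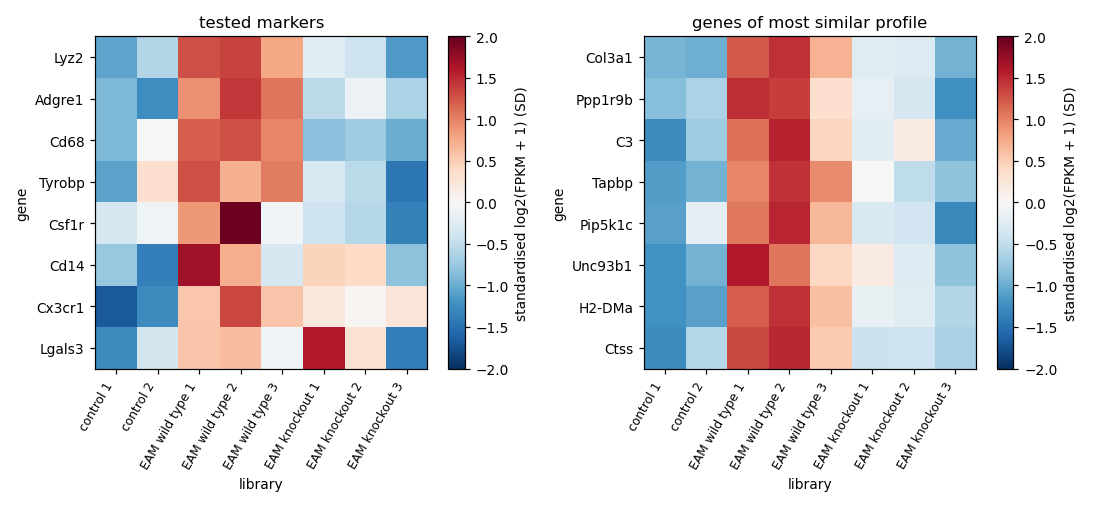
Standardised log2(FPKM + 1) in SD units (colour) of the 8 tested markers and of the 8 genes closest to their mean profile, with libraries in columns. The columns of EAM wild type 1 and EAM wild type 2 hold the highest values of most rows, and the row of Lgals3 is highest in EAM knockout 1 and lowest in EAM knockout 3.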

How the data were processed

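The authors deposited FPKM values of 34745 genes in 8 libraries, with symbols, gene identifiers and mm10 coordinates. Per the submitters' processing notes the tools were StringTie 1.3.3b, HISAT2 2.0.4 and edgeR, listed without roles. No source used here gives the annotation release, any filter or the use of strand. A second deposited sheet, text of another kind, pairs libraries with earlier names. Groups came from the labels.

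The members and gene lists were chosen with earlier results of these data known. Tests used limma 3.58.1 (R version 4.3.3) on values of log2(FPKM + 1), with a mean-variance trend, in 1 fit of all 8 libraries (5 residual degrees of freedom). Genes with at least 1 FPKM in at least 2 libraries were kept, which left 10393, and p-values were adjusted by Benjamini-Hochberg with a threshold of 0.05. The script was tested on simulated data. A fold change on this scale understates changes of low genes. Folds in the text are ratios of mean FPKM. Ccr2 and Itgam, which missed the filter, were compared by exact permutation tests over libraries.

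Exon lengths of GENCODE M21 (GRCm38, holding 98.62% of the gene identifiers) turned low FPKM values of genes with 1 transcript into whole fragments for 99.53% to 99.89% of values (tolerance 0.1), which gave the depths. Fragments of members with several transcripts are approximate, so no count test was run. Promoter windows came from RefSeq (GRCm38.p6), which gave 6 of 10 members.

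All members are named, list genes where they passed or ranked among the 4 highest of a list, and the 8 genes of most similar profile. Some genes that this rule names are not reported here. Alternatives covered the pseudocount, the filter, scaling, trend, groups fitted, replicate block, atrial content and each library left out.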

Additional observations from a re-analysis of the deposited data

How the results depend on the processing

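The markers called in EAM wild type against control numbered 3. They were 1 without a filter, with a filter of 5 FPKM (5 markers tested), after median-ratio scaling, after quantile normalization and without the 3 libraries high in atrial transcripts, and 0 with atrial content as covariate; leaving out single libraries gave 0 to 2. In EAM knockout against EAM wild type they numbered 3, with 1 without a filter or after quantile normalization, 0 after median-ratio scaling or without the 3 atrial-high libraries, and 1 to 3 with single libraries left out. In EAM knockout against control the count was 0 under all 20 alternatives. Cd68 lost its fall under 3 of 20 alternatives, Lyz2 under 8 of 20 and Adgre1 under 9 of 19, while Tyrobp passed with a filter of 5 FPKM (limma adjusted p = 0.0493). The rises of Adgre1, Lyz2 and Cx3cr1 were lost under 3 of 19, 10 of 20 and 15 of 19. The cause was not tested, except that fewer libraries or other sets of tested genes enter by construction.

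Over all genes, 155 changed in EAM wild type against control, with 91 without a filter, 77 with a filter of 5 FPKM, 93 after median-ratio scaling, 75 after quantile normalization, 56 with the atrial covariate and 15 to 135 with single libraries left out. In EAM knockout against EAM wild type 321 changed (30 up, 291 down), with 180, 195, 130 (43 up, 87 down) and 155 (57 up, 98 down) under the first 4 of these, 210 (35 up, 175 down) with equal nuclear FPKM sums, 72 without the atrial-high libraries and 101 to 250 with single libraries left out. In EAM knockout against control 142 changed, with 73 without a filter, 75 with a filter of 5 FPKM, 61 without the atrial-high libraries, 50 with the covariate and 35 to 177 with single libraries left out.

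Fitted changes that changed sign were, in knockout against EAM wild type, Lgals3, which ranged from -0.63 to 0.39 with single libraries left out, the latter without EAM knockout 3. In knockout against control they were Lyz2 at -0.17 and Lgals3 at -0.39 without the atrial-high libraries, Lyz2 at -0.11 and Lgals3 at -0.14 with the covariate, and Tyrobp and Cd68, which ranged from -0.49 to 0.13 and from -0.31 to 0.019 with single libraries left out, the upper values without control 2; none of these was a call. The log2 ratio of Ccr2 to Cx3cr1 in EAM wild type against control became 0.15 with a pseudocount of 0.1. Between genotypes it became -0.19 with that pseudocount, -0.15 without the atrial-high libraries and -0.067 to 0.13 with single libraries left out, the lower value without EAM wild type 2.

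Same-numbered libraries of different groups had correlations of their deviations from -0.20 to 0.35, so the numbers were not read as pairs; with the replicate block 2 markers rose in EAM wild type against control and 3 fell in the knockout. With 2 controls and 3 libraries per EAM group, an exact permutation test cannot go below 0.1, and Ccr2 rests on about 6 to 41 fragments per library.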
